A study of Mus musculus with 2 samples.

Results

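The small RNA of extracellular vesicles (EVs) of the mouse testis was examined here for 6 microRNAs (miRNAs) of an X-linked cluster, mmu-miR-871, mmu-miR-878, mmu-miR-880, mmu-miR-881, mmu-miR-883a and mmu-miR-883b. Their entries were taken by name from the known miRNAs in the deposited tables, both arms of each hairpin included. This gave 10 of the 525 known miRNA entries, out of 27065 entries of small RNA in all. The EVs came from testes of adult C57/BL6 mice (8 weeks old according to the methods), and both libraries belong to 1 condition, EVs digested with proteinase K and RNase A ahead of RNA extraction. The labels give the source as testis, the methods name seminiferous tubules as the material dissociated, and the EVs were collected from the cleared supernatant of the cell suspension without sorting for a cell type. No source used here states if the 2 libraries are of separate mice, of separate EV isolations or of pooled testes, and their spread may be technical only. There is no untreated library and no tissue library here, and no test between conditions was made.

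A miRNA is cut from a hairpin transcript, whose stem gives a 5p and a 3p mature arm of about equal length. Bases 2 to 8 of the mature arm, the seed, pair with target mRNAs and largely set which messages are repressed. The X-linked cluster is known from rodents as a group of rapidly evolving miRNAs expressed mainly in the testis, in male germ cells and also in Sertoli cells, and its hairpins are thought to have arisen from each other by duplication. Targets of the single members are less well known, and none is assigned here.

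The 6 hairpins lie on the minus strand of chromosome X in GRCm38.p6. They fall within a stretch of 29.7 kb, from 66780758 (the start of Mir883a) to 66810504 (the end of Mir871). In GENCODE M21 each of the 6 overlapped its own miRNA gene and no other gene. They are interleaved with other miRNAs of the same cluster, which holds 19 hairpins in 62.4 kb, all on the minus strand. In order of position, Mir883a and Mir883b come first, Mir880, Mir878 and Mir881 follow within 1.49 kb of each other, and Mir871 comes last.

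The mature sequences of the 10 listed entries are shown because the members, though neighbours on the chromosome, differ in seed and some share a 3′ end. They are RefSeq sequences (GRCm38.p6), written 5′ to 3′ with the seed in capitals. All 12 mature arms of the 6 hairpins matched RefSeq by name, and 10 of them were listed in the deposited tables. These are the 5p arms.
mmu-miR-871-5p: uAUUCAGAuuagugccagucaug
mmu-miR-878-5p: uAUCUAGUuggaugucaagaca
mmu-miR-883a-5p: uGCUGAGAgaaguagcaguuac
mmu-miR-883b-5p: uACUGAGAauggguagcaguca
These are the 3p arms.
mmu-miR-871-3p: uGACUGGCaccauucuggauaau
mmu-miR-878-3p: gCAUGACAccacacuggguaga
mmu-miR-880-3p: uACUCCAUccucucugaguaga
mmu-miR-881-3p: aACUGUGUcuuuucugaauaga
mmu-miR-883a-3p: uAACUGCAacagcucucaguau
mmu-miR-883b-3p: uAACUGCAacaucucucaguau

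The 10 listed arms carried 9 distinct seeds, and 8 of them began with U. Only miR-883a-3p and miR-883b-3p shared a seed within the group. Both arms were identical at 21 of 22 positions and differed by G12U, counted from 1 at the 5′ end of miR-883a-3p, so tags that do not cover this base could have been given to either. The other arms of the same hairpins, miR-883a-5p and miR-883b-5p, had the same base at 9 of 22 positions, and 6 of the 7 seed bases matched. Among 1679 mouse mature sequences of RefSeq, 1 further miRNA carried a seed of a listed member. This was miR-743a-5p of the same cluster, which had the seed of miR-871-5p and matched it at 20 of 22 positions, differing from miR-871-5p by A11G and A17U. Its level was 10.8 CPM, against 113 CPM for miR-871-5p. Levels are given as counts per 1000000 listed counts (CPM).

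A common ending ran through part of the group. The 3p arms of miR-878, miR-880 and miR-881 carried the letters CUGNNUAGA (N is any base) from position 14 to their 3′ end, while their seeds had 1 to 4 of 7 bases in common. These letters were searched at any position of the mature RNA strand as written, and were found in 9 of the 1679 mature sequences (0.536%). Besides the 3 members, 2 other miRNAs of the cluster had them as the 3′ end, miR-743a-3p and miR-743b-3p. The remaining 4 lay on other chromosomes and were not among the listed entries. In those 4 the letters started at position 8 or 11 and did not reach the 3′ end. Between miR-878-3p and miR-743a-3p, 17 of 22 positions were identical. The ending was chosen after the sequences and levels were seen, and it is given as a description.

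The hairpins of miR-871 and miR-880 show the extremes of the data that follow, the member with the highest level and the member furthest apart between the libraries. Both arms are in capitals. The hairpin of miR-871 spans chrX:66810428-66810504 and that of miR-880 spans chrX:66800530-66800607, both on the minus strand of GRCm38.p6.
mir-871: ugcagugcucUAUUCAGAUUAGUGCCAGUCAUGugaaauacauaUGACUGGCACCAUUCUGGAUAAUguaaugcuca
mir-880: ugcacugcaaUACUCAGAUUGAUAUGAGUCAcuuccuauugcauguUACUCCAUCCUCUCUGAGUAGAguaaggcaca

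The listed counts summed to 21970654 in library 1 and 24829208 in library 2, of which known miRNAs held 689004 and 559053. Over the 433 known miRNA entries with a mean count of 10 or more, edgeR's common dispersion of the pair of libraries gave a coefficient of variation of 62.2% on top of counting noise. Ratios of library 2 over library 1 are therefore read beside those of all known miRNAs, whose median log2 ratio was -0.45. Marker miRNAs of the germ cells of meiosis and after, miR-34b, miR-34c and miR-449a to c, were present at 972 ± 21.5 CPM in sum (SD, n = 2), with 4 of 5 names listed and no entry for miR-449b. Spermatogonial markers had 624 ± 243 CPM, red blood cell markers 517 ± 191 CPM and smooth muscle markers 505 ± 114 CPM. The gonadal somatic cell marker miR-202 had 393 ± 28.8 CPM, leukocyte markers 91.0 ± 33.4 CPM and striated muscle markers 6.67 ± 0.0927 CPM. In these bulk libraries, fewer vesicles from a cell type and less RNA per vesicle cannot be told apart.

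In sum, the 10 member entries had 7415 counts in library 1 and 4576 in library 2. This was 337 and 184 CPM, a mean of 261 ± 108 CPM, or 993 CPM where unannotated loci were left out of the listed counts. Of the known miRNA counts they held 1.08% in library 1 (exact Clopper-Pearson 95% interval 1.05 to 1.10) and 0.819% in library 2 (0.795 to 0.842), and these intervals cover counting error only. The mean of these shares was 0.947%, and it was 0.511% with only entries of the type mature in both the members and the known miRNAs, types that the sources used here do not define. The other X-linked testis miRNAs, with 13 of 14 listed names found and miR-509 not listed, had 5064 ± 1094 CPM, so the members made up 5.47% of the counts of all these X-linked miRNAs in library 1 and 4.12% in library 2. The most abundant of the others was miR-470-5p at 3462 CPM, from the hairpin next to Mir871. The members are thus a minor share of the X-linked signal, and they held a smaller share in library 2 beyond counting error.

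The highest member entry was miR-871-5p. It had 3074 counts in library 1 and 2117 in library 2, or 140 and 85.3 CPM, a mean of 113 ± 38.6 CPM. This placed it at rank 45 of the 525 known miRNA entries by mean level. The known miRNAs nearest to it in log2 CPM over the 2 libraries were miR-872-5p at a distance of 0.0995, miR-25-3p at 0.163 and miR-27b-3p at 0.214. Of the other arm, miR-871-3p, there were 257 counts in library 1 and 521 in library 2 (11.7 and 21.0 CPM, mean 16.3 ± 6.57 CPM, rank 121). The arms of this hairpin moved in opposite directions, miR-871-5p being lower and miR-871-3p higher in library 2.

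Next by level was miR-878-5p, with 2080 counts in library 1 and 1283 in library 2, or 94.7 and 51.7 CPM (mean 73.2 ± 30.4 CPM, rank 59). Its 3p arm, miR-878-3p, had 451 and 110 counts, or 20.5 and 4.43 CPM (mean 12.5 ± 11.4 CPM, rank 137). Both arms of miR-878 were lower in library 2, the 3p arm more so.

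The third entry by mean level was miR-880-3p, but its mean hides the widest gap of the group. It had 882 counts in library 1 and 79 in library 2, which is 40.1 and 3.18 CPM (mean 21.7 ± 26.1 CPM). Its rank among known miRNAs was 86 in library 1 and 207 in library 2. The other single-arm member, miR-881-3p, had 122 and 43 counts, or 5.55 and 1.73 CPM (mean 3.64 ± 2.70 CPM, rank 220). The 5p arms miR-880-5p and miR-881-5p were not among the listed entries and their levels were not analysed here. Every known miRNA entry that is listed has a count in both libraries, so an unlisted arm is not shown to be at 0.

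Members miR-883a and miR-883b differed in level although their 3p arms are nearly identical. For miR-883a-5p there were 466 counts in library 1 and 345 in library 2 (21.2 and 13.9 CPM, mean 17.6 ± 5.17 CPM). Its near namesake miR-883b-5p had 62 and 60 counts (2.82 and 2.42 CPM, mean 2.62 ± 0.287 CPM). The libraries did not overlap between these entries. The 3p arms were close to the detection limit, with 17 counts of miR-883a-3p in each library (0.774 and 0.685 CPM) and 4 and 1 counts of miR-883b-3p.

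**Figure D1:**
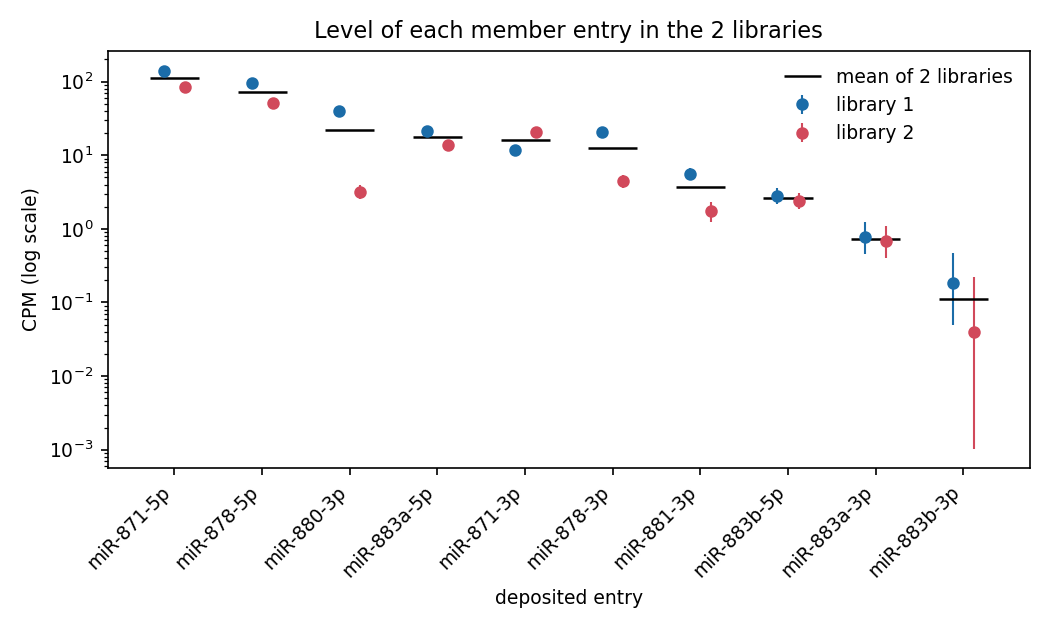
Level of each of the 10 member entries in CPM on a log scale, with library 1 in blue, library 2 in red and the mean of the 2 as a bar; the vertical lines are exact 95% intervals of counting error. The entries run from 113 CPM for miR-871-5p to 0.111 CPM for miR-883b-3p, and miR-880-3p has the widest gap between the libraries among entries over 1 CPM.

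Between neighbours in this order, the ranges of the 2 libraries overlapped for miR-871-5p and miR-878-5p, and again for each neighbouring pair from miR-880-3p through miR-883a-5p, miR-871-3p, miR-878-3p and miR-881-3p to miR-883b-5p. Compared within each library, miR-871-5p was above miR-878-5p in both (140 against 94.7 CPM and 85.3 against 51.7 CPM). The same held for miR-878-3p above miR-881-3p (20.5 against 5.55 CPM and 4.43 against 1.73 CPM). The order of the other overlapping neighbours differed between the libraries. Entries further apart in the order could still be separated, the ranges of miR-883a-5p and miR-871-3p both lying above those of miR-881-3p and miR-883b-5p. The ranges were apart between miR-878-5p and miR-880-3p, between miR-883b-5p and miR-883a-3p, and between the 3p arms of miR-883a and miR-883b. Summed over arms, miR-871 had 129 ± 32.1 CPM and miR-878 85.7 ± 41.8 CPM, followed by miR-880 (21.7 CPM), miR-883a (18.3 ± 5.24 CPM), miR-881 (3.64 CPM) and miR-883b (2.73 ± 0.387 CPM). Together, miR-871 and miR-878 held 79.1% of the member counts in library 1 and 88.1% in library 2, while miR-880 held 11.9% and 1.73%.

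The arms of 1 hairpin can be compared within a library, where its depth cancels. Of the 4 member hairpins with both arms listed, all had more 5p than 3p counts in both libraries. Both arms of miR-871 are of the type hairpin, and both arms of miR-883b of the type mature. The arms of miR-878 and of miR-883a mix these types, which the sources used here do not define. The 5p share of miR-883a was 96.5% in library 1 (95% interval 94.4 to 97.9) and 95.3% in library 2 (92.6 to 97.2), with overlapping intervals. For miR-883b it was 93.9% (85.2 to 98.3) and 98.4% (91.2 to 99.96), also overlapping. For miR-871 the share was 92.3% (91.3 to 93.2) in library 1 and 80.3% (78.7 to 81.8) in library 2, and for miR-878 it was 82.2% (80.6 to 83.7) and 92.1% (90.6 to 93.5). These shares moved in opposite directions, in both cases beyond counting error.

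Among all 113 known hairpins with both arms listed and at least 10 counts over both arms in each library, 55.8% had a 5p share over 50% in both libraries, and the median 5p share was 72.0%. The 9 other X-linked hairpins in this count were split, with 3 over 50% in both libraries. Those of miR-201, miR-463 and miR-470 had mean 5p shares of 99.1%, 97.0% and 99.6%, while miR-741 had 10.2% and miR-547 1.18%. The 5p to 3p ratio changed by over 1 on the log2 scale between the libraries in 3 of the 4 member hairpins, against 50.4% of the 113, and the median absolute change of all 113 was 1.01. The changes of miR-871 (-1.56) and miR-878 (1.34) were somewhat above that median, and that of miR-883a (-0.43) was below it, while that of miR-883b (1.95) rests on 4 and 1 counts of its 3p arm.

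**Figure D2:**
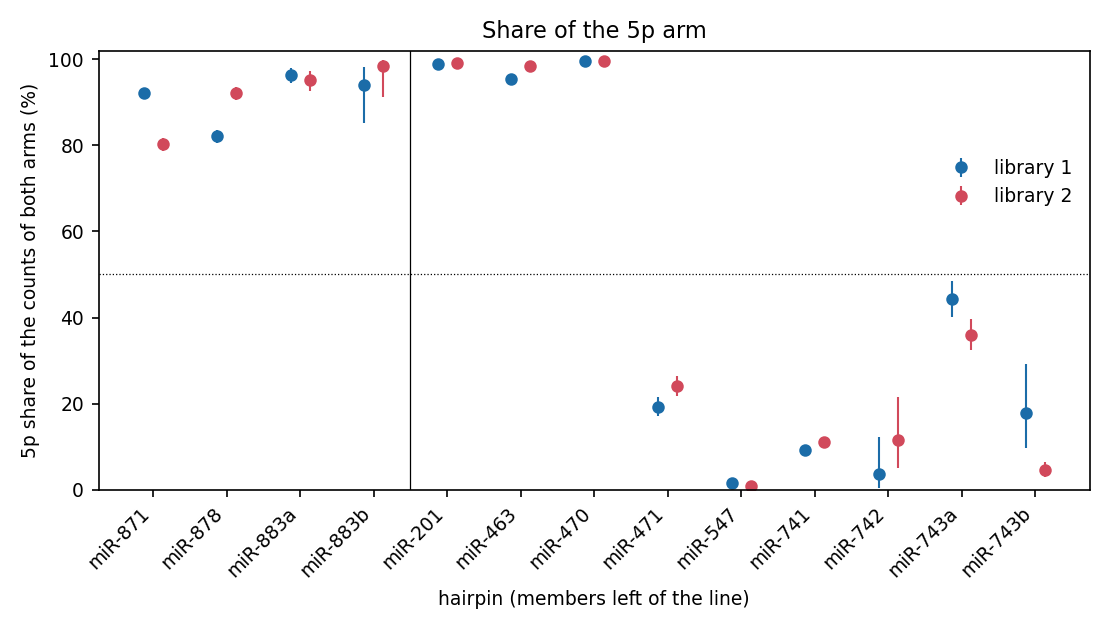
The 5p share of the summed counts of both arms in percent, for the 4 member hairpins left of the line and 9 other X-linked hairpins right of it, with library 1 in blue, library 2 in red and exact 95% intervals as vertical lines. The member hairpins lie between 80.3% and 98.4%, and the other hairpins form a high set near 100% and a low set under 50%.

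The members differed between the libraries as follows. The median log2 ratio of library 2 over library 1 over the 9 member entries with a mean count of 10 or more was -0.71, beside -0.45 over the 433 known miRNA entries. The tenth, miR-883b-3p, missed this minimum, and its fold of 4.52 higher in library 1 rests on 4 and 1 counts (log2 ratio -2.18, 95% interval of counting error -7.80 to 1.16). Of the 9, 8 were lower in library 2, as were 337 of the 433. The exception was miR-871-3p, with a log2 ratio of 0.84 (0.62 to 1.06). Over 2-fold apart were 3 of the 9, beside 35.1% of the 433 known miRNA entries and 33.7% of the 23876 entries of any class with that count. All 3 were lower in library 2, beside 28.6% of known miRNA entries over 2-fold lower. These counts are near the background and do not set the group apart.

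The 3 entries were miR-880-3p with a log2 ratio of -3.66 (95% interval of counting error -4.01 to -3.32), miR-878-3p with -2.21 (-2.53 to -1.91) and miR-881-3p with -1.68 (-2.22 to -1.17). The first was 12.6-fold higher in library 1. At a mean count of at least 100, where 19.9% of 206 known miRNA entries were over 2-fold apart, miR-880-3p was the fifth and miR-878-3p the 11th furthest apart, and 2 of 6 member entries were past 2-fold. The 5p entries lay closer to the bulk of known miRNAs, with log2 ratios of -0.71 for miR-871-5p (-0.80 to -0.63), -0.87 for miR-878-5p (-0.98 to -0.77) and -0.61 for miR-883a-5p (-0.82 to -0.41). The entries miR-883b-5p (-0.22) and miR-883a-3p (-0.18) had intervals that include 0.

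**Figure D3:**
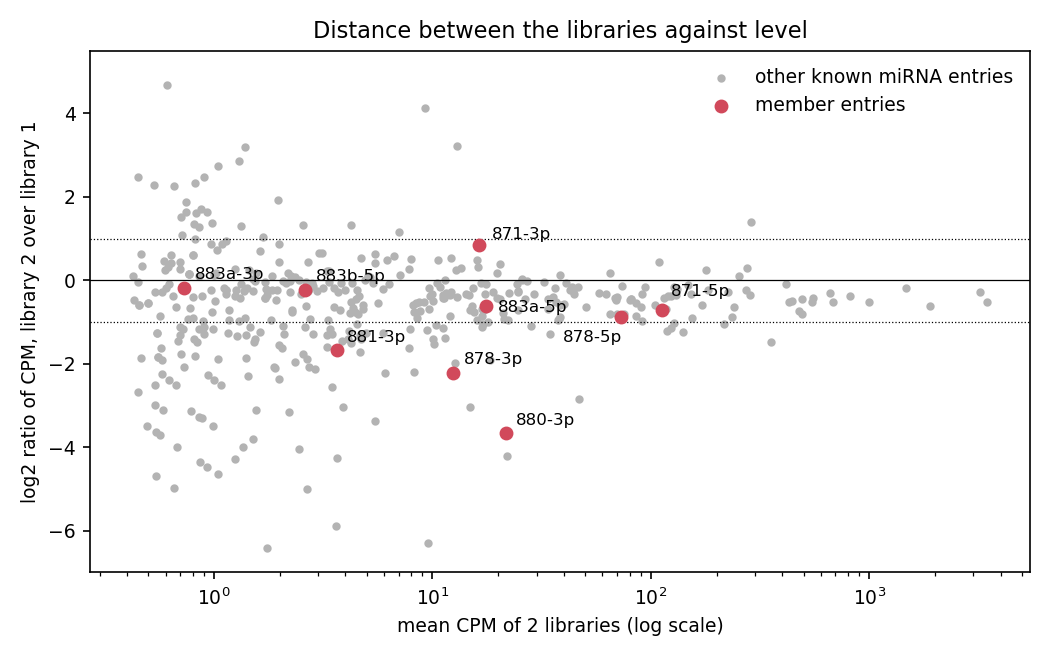
Log2 ratio of CPM, library 2 over library 1, against the mean CPM on a log scale for known miRNA entries with a mean count of 10 or more, with the 9 member entries in red, dotted lines at a 2-fold difference and let-7k beyond the lower axis limit. The 3p arms of miR-880, miR-878 and miR-881 lie below -1, and miR-871-3p is the one member above 0.

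All 3 entries are 3p arms of the type that the tables call hairpin, they carry the ending CUGNNUAGA shown above, and their hairpins are direct neighbours. The hairpin next in order, Mir463, also had a 3p arm lower in library 2, miR-463-3p with 97 and 26 counts and a log2 ratio of -2.08. These 4 hairpins are consecutive and span 2.80 kb, from 66799223 to 66802021. The 5p arms from the same stretch had smaller gaps, with log2 ratios of -0.87 for miR-878-5p and -0.45 for miR-463-5p. Of the 2 other cluster entries with this ending, miR-743a-3p had 315 and 447 counts (0.33) and miR-743b-3p had 55 and 578 counts (3.22), so entries with the same ending went both ways. Other 3p arms of the type hairpin in the cluster were within 2-fold, miR-871-3p (0.84), miR-471-3p (-0.16) and miR-465d-3p (-0.35). The entry miR-463-3p and the stretch were chosen after their values were seen. A link of these gaps to the arm, type, ending or position was not tested.

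**Figure D4:**
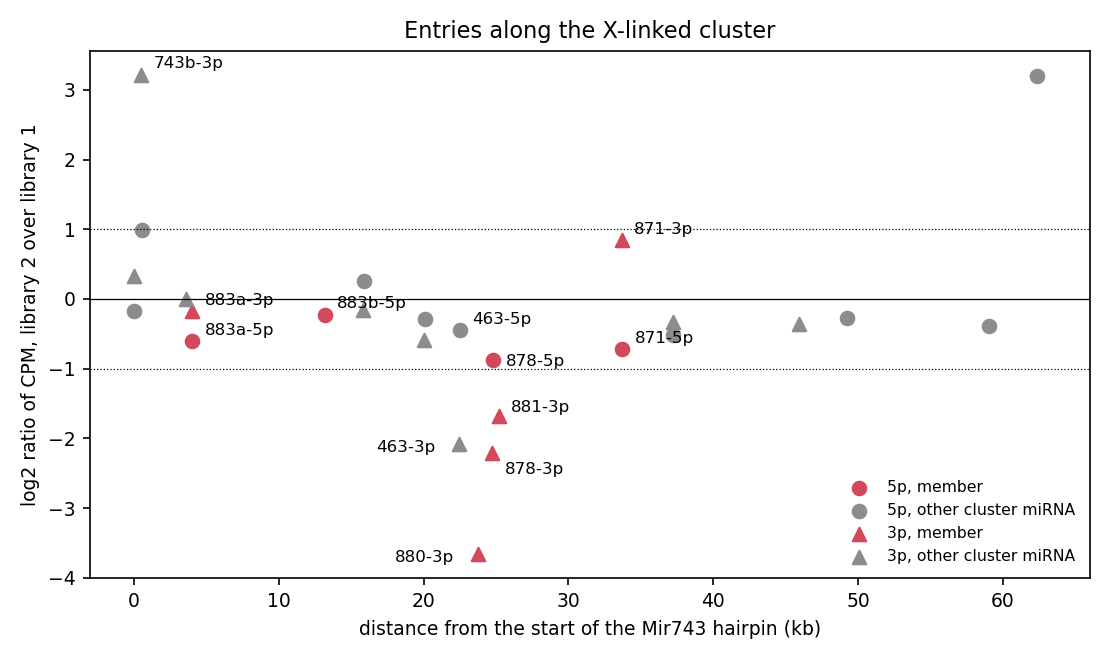
Log2 ratio of CPM, library 2 over library 1, for cluster entries with a mean count of 10 or more against the distance of each arm from the start of the Mir743 hairpin in kb, with members in red, other cluster miRNAs in grey, 5p arms as circles and 3p arms as triangles. The 4 entries below -1 are 3p arms within a 2.80 kb stretch; the 3p entry shared by miR-465a, miR-465b and miR-465c is not drawn, and miR-465c-5p, which has a pair of hairpins, is drawn once.

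Other groups give a measure of how the members stood between the libraries. The summed counts of the members had a log2 ratio of -0.87 (-0.93 to -0.82), and without miR-880-3p it was -0.72. The miR-470 and miR-741 to miR-743 entries had -0.51 (-0.52 to -0.49) in sum and the miR-465 family -0.30 (-0.33 to -0.28). The first of these sums rests on miR-470-5p, with 89663 of its 95687 counts in library 1. Over the 9 entries of that group with a mean count of 10 or more, the median log2 ratio was -0.17. Among 22 other X-linked entries with a mean count of 10 or more, the median was -0.28 and 3 were over 2-fold apart. The germ cell markers named above had 0.05 in sum, but this sum rests on miR-34c-3p, which went from 158 to 416 CPM while miR-449a-5p went from 642 to 451 CPM. Of their 6 entries with a mean count of 10 or more, 4 were lower in library 2 and the median log2 ratio was -0.21. The sums of the other marker lists had log2 ratios of -0.15 for miR-202, -0.81 for spermatogonial markers, -0.77 for red blood cell markers, -0.77 for leukocyte markers, -0.46 for smooth muscle markers and -0.03 for striated muscle markers. At a mean count of 10 or more, all 4 spermatogonial and all 4 smooth muscle entries were lower in library 2. So were 3 of 4 red blood cell, 3 of 5 leukocyte and 1 of 2 striated muscle entries. For miR-202, the 5p arm went from 248 to 301 CPM and the 3p arm from 166 to 71.9 CPM. The part of these cell types in the members' difference was not tested, and with 1 library on each side the intervals of these ratios cover counting error only.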

How the data were processed

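Small RNA from EVs of the mouse testis was sequenced by the authors on the BGISEQ-500 platform in 2 libraries. Per the methods, clean reads were mapped with Bowtie2 and cmsearch, and each tag was given to 1 class by a priority that began with miRBase. For the tools' versions and the genome build, none of the sources used here gives a value. The authors deposited a raw count for each entry and library, with no normalization. They also deposited a TPM value, which is in effect RPM, tags per 1000000 of a larger total without length correction, of which the listed entries hold 93.7% and 94.9%. The tables type 6 member entries as hairpin and 4 as mature, with no definition of these types in the sources used here.

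From the deposited counts, CPM were computed over all listed counts, unannotated loci included. Shares and ratios carry exact Clopper-Pearson 95% intervals (SciPy 1.17.1), limited to counting error, as copies made by PCR are not separate molecules. Entries over 2-fold apart in CPM were counted if the mean count was 10 or more. Dispersion and TMM scaling came from edgeR 4.0.16 and size factors from DESeq2 1.42.0 in R 4.3.3. The dispersion step was checked on simulated counts, but only at dispersions lower than those found here. NumPy 2.4.6, pandas 2.3.3 and, for the plots, matplotlib 3.10.9 were used. All member entries are named, with the 3 known miRNAs nearest to the highest of them and miRNAs of the same seed. Names were matched to RefSeq for 436 of the 525 known entries. The members and all lists were chosen with earlier results of these data known.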

Additional observations from a re-analysis of the deposited data

How the results depend on the processing

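No paired analysis was possible because all libraries are of a single condition. With each library left out, the summed level of the members was 184 to 337 CPM and their share of known miRNA counts 0.819% to 1.08%. The summed level was 993 CPM over listed counts without unannotated loci. The share was 0.511% with mature entries only. TMM scaling moved the median log2 ratio of all entries between the libraries from 0.20 to 0.01. The median log2 ratio of the member entries was -0.79 with no count minimum, -0.79 at a mean count of at least 100, -0.90 under TMM, -0.89 under DESeq2 size factors and -0.24 over known miRNA counts, where that of known miRNAs was 0.03. A change of scaling shifts every log2 ratio by the same amount, so it cannot alter the distance of the members from known miRNAs. The count minimum could, and known miRNAs had a median of -0.46 with none and -0.44 at a mean count of at least 100. Over 2-fold apart were 2 to 4 member entries, beside 19.9% to 40.9% of known miRNA entries. Of 74 values of single entries and hairpins, 64 stayed within the SD of the 2 libraries or, for log2 ratios, within their counting-error interval. The 10 that moved were all log2 ratios. Over known miRNA counts, miR-883b-5p (0.25) and miR-883a-3p (0.30) changed sign. The log2 ratios need both libraries and were not computed with 1 left out. No member entry is shared with another miRNA, so leaving out shared entries was not run. Counts of 1 to 17 limit what can be said of the 3p arms of miR-883a and miR-883b.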
